A study of Mus musculus with 9 samples.

Results

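The proteasome genes were followed through the first 2 postnatal weeks of mouse hindlimb muscle. Members were the genes whose symbol is Psma, Psmb, Psmc or Psmd followed by a number, or Psme1 to Psme4, and that had a probe set assigned to that symbol alone. A gene with several such probe sets was read by the brightest, taken by its average over the 9 arrays. The rule found 42 of 22180 genes: 13 constitutive subunits of the core particle, 3 immune subunits, 2 tissue-restricted core subunits, and 24 regulatory subunits, assembly chaperones and activators. RNA came from hindlimb skeletal muscle taken at postnatal day 2 (P2), day 7 (P7) or day 14 (P14), with 3 arrays at each age. The strain was given as mixed at every age, and no treatment or engineered allele was named. Total RNA was extracted with Trizol, and biotin-labelled cRNA was made from 6 µg of it. The replicates were described as biological, with no statement of whether each held 1 animal or a pool. The p-values therefore weigh changes against the spread between these arrays, and the small number of arrays limits the precision.

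The proteasome degrades proteins that carry ubiquitin chains. Its barrel-shaped core is built of rings of alpha subunits (Psma) and beta subunits (Psmb), of which Psmb5, Psmb6 and Psmb7 carry the constitutive peptide-cutting sites. A regulatory particle of ATPases (Psmc) and non-ATPase subunits (Psmd) binds, unfolds and feeds in the substrate, while PA28 (Psme1, Psme2, Psme3) and PA200 (Psme4) are alternative caps. Interferon-gamma can induce Psmb8, Psmb9 and Psmb10, which take the places of Psmb5, Psmb6 and Psmb7 and favour peptides for MHC class I. In growing muscle the proteasome removes proteins as fibres enlarge and exchange developmental contractile isoforms for adult ones.

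Promoter sequences are shown for the members that the comparisons turn on, because proteasome genes are known to be switched on together by the transcription factor Nfe2l1, and the immune genes by interferon. Each line below holds the 250 bases before the gene's start, 5′ to 3′ on the gene's strand, from RefSeq on build GRCm38.p6. Psma2, Psmc6, Psmd12, Psme2 and Psme4 had called changes, Psmb5 and Psmb8 fill the same catalytic position, and Psmb9 is a further immune gene. Psme2 has 2 overlapping entries, of which the first listed is shown. Capitals mark matches to any motif searched.
Psma2 (chr13:14612992-14613241, plus strand): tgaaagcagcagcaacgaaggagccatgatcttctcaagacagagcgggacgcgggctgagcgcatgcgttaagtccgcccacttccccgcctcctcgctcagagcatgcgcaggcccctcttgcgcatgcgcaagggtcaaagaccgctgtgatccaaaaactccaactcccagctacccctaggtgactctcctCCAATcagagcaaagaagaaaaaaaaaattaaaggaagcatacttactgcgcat
Psmc6 (chr14:45329574-45329823, plus strand): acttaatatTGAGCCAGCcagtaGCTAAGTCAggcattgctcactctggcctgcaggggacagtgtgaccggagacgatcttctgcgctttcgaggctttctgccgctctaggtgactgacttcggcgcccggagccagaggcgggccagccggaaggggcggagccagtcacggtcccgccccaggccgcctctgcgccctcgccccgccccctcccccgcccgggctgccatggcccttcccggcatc
Psmd12 (chr11:107479278-107479527, plus strand): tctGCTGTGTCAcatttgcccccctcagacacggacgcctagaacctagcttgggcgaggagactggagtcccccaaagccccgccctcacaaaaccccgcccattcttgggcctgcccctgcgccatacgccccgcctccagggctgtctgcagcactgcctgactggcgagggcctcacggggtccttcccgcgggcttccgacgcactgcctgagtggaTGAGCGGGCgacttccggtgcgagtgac
Psme2 (chr14:55591022-55591271, minus strand): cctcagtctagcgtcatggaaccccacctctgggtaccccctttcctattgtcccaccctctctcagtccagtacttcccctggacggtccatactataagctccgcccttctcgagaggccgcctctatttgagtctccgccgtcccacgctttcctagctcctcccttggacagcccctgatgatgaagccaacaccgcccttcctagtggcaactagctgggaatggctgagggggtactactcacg
Psme4 (chr11:30771525-30771774, plus strand): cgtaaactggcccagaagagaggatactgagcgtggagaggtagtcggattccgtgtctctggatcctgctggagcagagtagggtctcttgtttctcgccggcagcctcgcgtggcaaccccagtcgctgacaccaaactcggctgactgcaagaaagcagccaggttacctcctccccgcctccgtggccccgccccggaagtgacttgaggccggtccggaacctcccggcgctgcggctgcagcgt
Psmb5 (chr14:54617996-54618245, minus strand): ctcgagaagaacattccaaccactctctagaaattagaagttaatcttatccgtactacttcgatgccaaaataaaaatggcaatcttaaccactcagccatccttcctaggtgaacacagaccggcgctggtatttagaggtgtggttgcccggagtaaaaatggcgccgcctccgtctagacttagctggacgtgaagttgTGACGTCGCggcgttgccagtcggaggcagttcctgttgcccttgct
Psmb8 (chr17:34197945-34198194, plus strand): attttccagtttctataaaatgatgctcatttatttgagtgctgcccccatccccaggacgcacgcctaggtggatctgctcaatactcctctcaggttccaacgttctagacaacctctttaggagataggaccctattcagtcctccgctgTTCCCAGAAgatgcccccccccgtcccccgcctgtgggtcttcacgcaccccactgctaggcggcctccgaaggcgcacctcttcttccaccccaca
Psmb9 (chr17:34187331-34187580, minus strand): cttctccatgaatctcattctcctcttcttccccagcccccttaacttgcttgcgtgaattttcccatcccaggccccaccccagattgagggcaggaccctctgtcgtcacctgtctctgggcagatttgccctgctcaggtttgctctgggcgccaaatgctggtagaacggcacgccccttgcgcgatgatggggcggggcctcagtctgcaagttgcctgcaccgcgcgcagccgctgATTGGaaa

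Motifs were searched on both strands in these 250 bases, with N for any base. Promoter entries were available for 35 members, and the other members were not searched. The C form of the antioxidant response element core, TGACNNNGC, to which Nfe2l1 can bind, was present in 5 of these 35 (Psmb5, Psmb6, Psmc6, Psmd12 and Psmd9). It was present in 10.2% of all 32851 promoters. Psmc6 and Psmd12, both called higher at P14 than at P2, held it together with the G form TGAGNNNGC, while Psma2, Psme4 and both entries of Psme2 held neither, so 2 of the 5 called members had the C form. In Psmd12 the matches began 247 and 28 bases before the start. TGAGNNNGC was found in 7 members and in 14.4% of all promoters. The NF-Y box CCAAT was found in 14 members, Psma2 and Psmb9 among them, and in 33.8% of all promoters. Of the motifs read by interferon-activated factors, the GAS element TTCNNNGAA was present in Psmb8 alone among the 35 members searched and in 7.02% of all promoters. The IRF element, GAAA repeated after any 2 bases, was present in Psmb3, Psmd4 and Psmd9, and in 2.98% of all promoters. The motifs can overlap each other, and a match describes letters, not a bound site.

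Muscle identity was checked first. All 10 skeletal muscle markers had a mean above background, and Ckm, the muscle creatine kinase, had mean log2 signals of 10.22, 10.72 and 11.21 at P2, P7 and P14. Myh8, the perinatal myosin heavy chain, fell by 5.32 on the log2 scale at P14 relative to P2 (limma adjusted p = 9.19e-11). In that comparison 4 of the muscle markers were called higher and Myh8 alone lower. Array medians lay between 3.29 and 3.36, and correlations between replicates across all genes ranged over 0.953 to 0.964 for P2 arrays, 0.967 to 0.974 for P7 arrays and 0.981 to 0.984 for P14 arrays. P2 replicate 2 stood apart from the other P2 arrays on the second principal component, at -33.2 against 21.5 and 27.8. Member counts of higher means and of separate groups in comparisons with P2 are therefore also given without it. The count called higher at P14 relative to P2 is too, while values by role include it. Background was set at a log2 signal of 3.43, the 95th percentile of 1432 smell, pheromone and taste receptor genes.

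Of the 42 members, 39 had a mean above background, and all 42 entered every test. The exceptions were Psma8, an alpha subunit of testis, Psmb11, a beta subunit of thymus cortex, and Psma5, a constitutive alpha subunit. Psma8 had log2 signals of 2.43 to 3.20 and Psmb11 of 2.31 to 2.92 across the arrays. Psma5, which every constitutive proteasome contains, was listed by 2 probe sets, both dim: the brighter gave 2.46 to 2.89 and the other 1.32 to 3.63. Levels depend on each probe set's own response, so no member's level was set against another's.

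**Figure D1:**
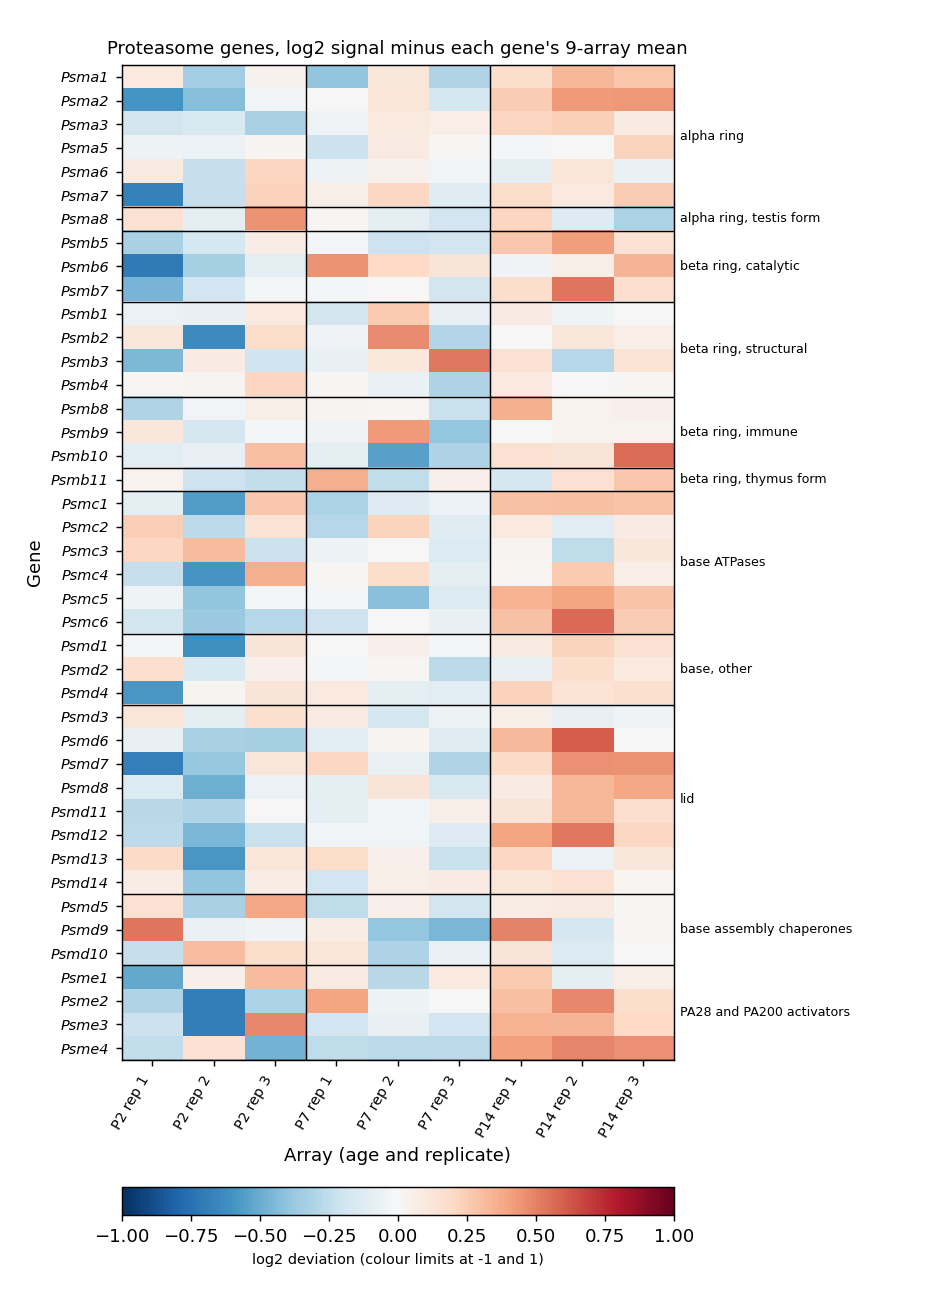
Heat map of 42 proteasome genes (vertical axis, grouped by role) in 9 arrays (horizontal axis, P2 to P14), coloured by log2 signal minus the gene's own mean over the arrays. The medians of the members were 0.16, 0.14 and 0.14 in the P14 arrays, and P2 replicate 2 had the lowest median, at -0.23.

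From P2 to P14 few proteasome genes were called, and those called were higher. At P14 relative to P2, limma called 5 members higher and 0 lower at an adjusted p under 0.05: Psma2 of the alpha ring, Psmc6 of the base ATPases, Psmd12 of the lid, and the activators Psme2 and Psme4. That was 11.9% of members, against 6.63% of all genes called higher and 11.1% of the 12297 genes with a mean above background. The members' share thus lay near that of other expressed genes. For lower calls the background was 4.40% of all genes, and at an unadjusted p under 0.05 limma gave 14 members higher, where 13.7% of all genes passed, and 0 lower, where 10.6% passed. The means of 33 members were higher and of 9 lower, where those of 51.8% of all genes and 57.7% of genes above background were higher. Without P2 replicate 2 the count of members called higher was 4, beside 6.14% of all genes. In that setting 29 means were higher, beside 51.4% of all genes and 53.3% of genes above background.

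Psma2 forms part of the alpha ring that gates the core. Its log2 signals were 6.06, 6.23 and 6.63 at P2, 6.66, 6.78 and 6.48 at P7, and 6.91, 7.08 and 7.09 at P14. All P14 arrays were above all P7 and P2 arrays, while P7 and P2 overlapped. Psma2 was 1.65-fold higher at P14 than at P2 (log2 change 0.72 ± 0.18, SE; limma adjusted p = 0.0194).

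Psmc6 is an ATPase of the ring that unfolds substrates. It gave 7.69, 7.50 and 7.59 at P2, 7.67, 7.87 and 7.80 at P7, and 8.17, 8.44 and 8.13 at P14 on the log2 scale. The P14 arrays lay above all others, and P7 overlapped P2 through its lowest array. The change at P14 relative to P2 was 1.58-fold (log2 0.66 ± 0.16, SE; limma adjusted p = 0.0181). After cyclic loess scaling between arrays it was 0.46 with an adjusted p of 0.0820, and so was not called.

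Psmd12 is a scaffold subunit of the lid, which holds the deubiquitinating enzyme. Its log2 signals were 6.69, 6.50 and 6.73 at P2, 6.93, 6.93 and 6.83 at P7, and 7.35, 7.48 and 7.16 at P14. The 3 ages did not overlap at all. Psmd12 was 1.61-fold higher at P14 than at P2 (log2 change 0.69 ± 0.16, SE; limma adjusted p = 0.0135), while at P7 relative to P2 the change of 0.26 had an adjusted p of 0.538.

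Psme2 encodes the beta subunit of the PA28 cap, and a near copy, Psme2b, exists elsewhere in the genome, so cross-signal cannot be told apart. Psme2 had log2 signals of 4.60, 4.21 and 4.58 at P2, 5.29, 4.85 and 4.90 at P7, and 5.20, 5.38 and 5.07 at P14. Both later ages lay wholly above P2 and overlapped each other. The change at P14 relative to P2 was 1.68-fold (log2 0.75 ± 0.19, SE; limma adjusted p = 0.0171), and without P2 replicate 2 it was 0.63 with an adjusted p of 0.0506. Its partner Psme1, the PA28 alpha subunit, ran from 5.63 to 6.46 over the arrays, with a change of 0.12 (adjusted p = 0.789) that turned negative after cyclic loess. In the RefSeq order Psme1 and Psme2 lie on chromosome 14 with only Emc9 between them. A probe set that lists Psme2 together with 9930111J21Rik1 and 9930111J21Rik2 was dimmer, at 3.22 to 3.91. Its change at P14 relative to P2 was 0.26 and was not called (limma adjusted p = 0.413).

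Psme4 encodes PA200, a single-chain cap. Its signals were 7.00, 7.39 and 6.77 at P2, 6.99, 6.97 and 6.98 at P7, and 7.65, 7.73 and 7.70 at P14 on the log2 scale. The P14 arrays stood above both earlier ages, and the P7 values fell inside the range of P2. Psme4 was 1.65-fold higher at P14 than at P7 (log2 change 0.72 ± 0.18, SE; limma adjusted p = 0.0491) and 1.56-fold higher at P14 than at P2 (0.64 ± 0.18; adjusted p = 0.0314). After cyclic loess these changes were 0.57 and 0.47, with adjusted p of 0.164 and 0.135, and neither was called. Psme3, the nuclear PA28 gamma cap, changed by 0.45 and 0.44 in the same comparisons and passed in neither (limma adjusted p = 0.417 and 0.282).

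**Figure D2:**
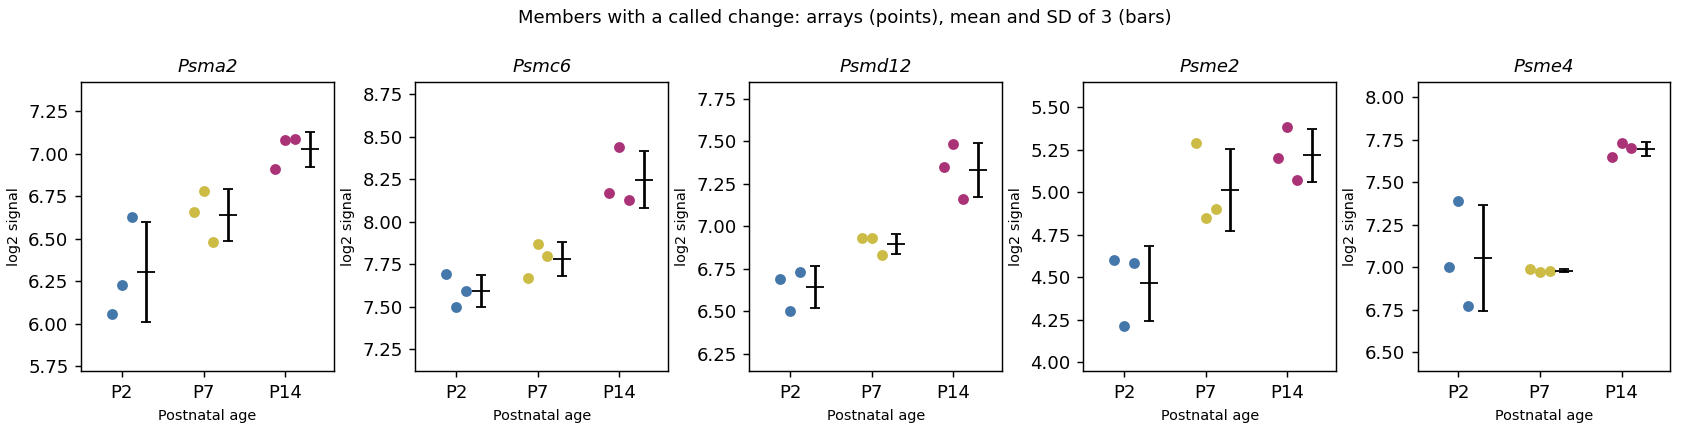
Log2 signal (vertical axes) by postnatal age (horizontal axes) of the 5 members with a called change, with points for arrays and bars for the mean and SD of 3. In Psmd12 the ages do not overlap, and in Psme4 the P7 arrays sit at 6.97 to 6.99 below P14 arrays at 7.65 to 7.73.

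These calls were close to the threshold. The number of members called higher at P14 relative to P2 was 3 without P2 replicate 1, 6 without P2 replicate 3, 1 without P14 replicate 1, 0 without P14 replicate 2 and 4 without P14 replicate 3, while the log2 changes of the 5 genes ranged from 0.50 to 0.88 over all these fits. The share of all genes called higher in the same fits was 4.34%, 7.52%, 3.89%, 3.77% and 4.11%. Without P14 replicate 2 the adjusted p of the 5 genes rose to 0.0783 for Psma2, 0.103 for Psmc6, 0.0761 for Psmd12, 0.0892 for Psme2 and 0.109 for Psme4. The Psme4 call at P14 relative to P7 was lost when any single array of these ages was left out, with adjusted p of 0.117 to 0.176.

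By role, the PA28 and PA200 activators had the largest median difference at P14 relative to P2, at 0.54 as deposited and 0.42 after cyclic loess. Among the groups of the core and the regulatory particle, the constitutive catalytic and lid genes had the largest. Their medians were 0.49 and 0.45 as deposited and 0.35 and 0.28 after cyclic loess. Among the constitutive alpha subunits 5 of 6 had a higher mean at P14 than at P2, with a median log2 difference of 0.37, and besides Psma2 none passed the test. Psma1 and Psma3 did not overlap between these ages (0.33 and 0.40). Such separation, with P14 higher, was seen in 16.2% of all genes and 24.0% of genes above background. Psma7 gave 0.41 with overlapping arrays and Psma6 -0.04. The structural beta subunits Psmb1, Psmb2, Psmb3 and Psmb4 had values from -0.05 to 0.18, none called, and their arrays overlapped at every age.

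The base ATPases, which form the unfolding ring, had a median of 0.34, with 4 of 6 higher. Psmc6 was called, Psmc5 gave 0.49 (limma adjusted p = 0.0891) and Psmc1 0.42 (0.220). Both had groups apart, as did 16.2% of all genes and 24.0% of genes above background in that direction. Psmc4 gave 0.27, while Psmc2 and Psmc3 gave -0.02 and -0.14. Of the remaining base subunits, the large scaffold Psmd1 gave 0.32, Psmd2 0.05 and the ubiquitin receptor Psmd4 0.31, none of which passed.

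The lid had a median log2 difference of 0.45 at P14 relative to P2, with 7 of 8 genes higher and 5 with groups apart. Means were higher in 51.8% of all genes and 57.7% of genes above background, and groups apart and higher in 16.2% and 24.0%. Psmd7, partner of the deubiquitinase, had signals of 7.23, 7.53 and 8.03 at P2 and 8.10, 8.37 and 8.36 at P14. The change of 0.68 in Psmd7 did not pass (limma adjusted p = 0.0559), and neither did those of 0.55 in Psmd6 (0.0693), 0.49 in Psmd8 (0.0986) and 0.40 in Psmd11 (0.142). Psmd14, the deubiquitinating subunit itself, gave 0.18, Psmd13 0.17 and Psmd3 -0.08. The chaperones Psmd5, Psmd9 and Psmd10, which help assemble the base and leave the finished particle, gave -0.01, -0.03 and -0.09.

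**Figure D3:**
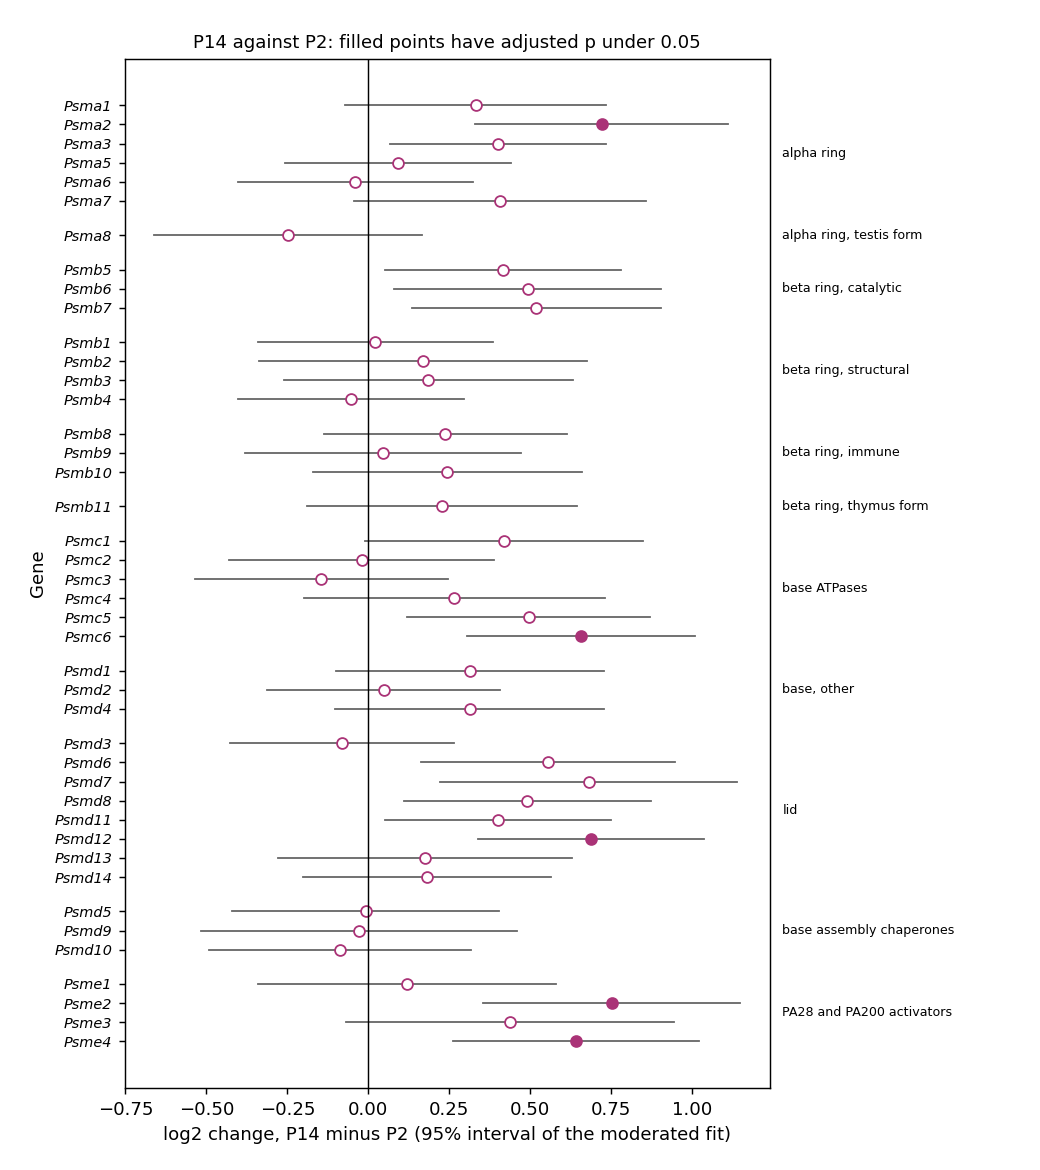
Log2 change at P14 minus P2 (horizontal axis) of 42 proteasome genes grouped by role, with 95% intervals and filled points for an adjusted p under 0.05. The 5 filled points lie between 0.64 and 0.75, the 3 assembly chaperones lie at or just under 0, and no member falls below -0.25.

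The first postnatal week held no called change. At P7 relative to P2, limma called 0 members in either direction, where 0.185% of all genes were called higher and 0.144% lower, and at an unadjusted p under 0.05 it gave 2 higher, Psmb6 and Psme2, beside 6.22% of all genes, and 0 lower, beside 6.61%. Psmb6 changed by 0.63 (adjusted p = 0.178) and Psme2 by 0.55 (0.234). The means of 25 of 42 members were higher, against 49.2% of all genes. Without P2 replicate 2 this count was 18, beside 48.0% of all genes and 41.3% of genes above background. In 4 members, Psma3, Psmb6, Psmd12 and Psme2, the P7 arrays lay wholly above the P2 arrays, as in 7.30% of all genes. They lay wholly below in 0 members, beside 7.90% of all genes. Without P2 replicate 2, P7 lay wholly above in 5 members and wholly below in 5, beside 13.3% and 17.1% of all genes.

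In the second week 39 of 42 members had a higher mean at P14 than at P7, against 52.3% of all genes and 62.1% of genes above background. The median member difference was 0.16, against 0.09 among genes above background. Limma called Psme4 alone higher, beside 1.72% of all genes and 3.03% of genes above background, and 0 lower, beside 0.703% of all genes. At an unadjusted p under 0.05 it gave 8 members higher, beside 9.58% of all genes, and 0 lower, beside 5.07%. In 15 members all P14 arrays lay above all P7 arrays, as they did in 14.8% of all genes and 23.7% of genes above background.

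The count of higher means depended on how arrays were scaled. After cyclic loess, 25 of 42 members had a higher mean at P14 than at P7 and 29 at P14 than at P2, where the deposited values gave 39 and 33. The shares of genes above background moved too, from 62.1% to 48.7% and from 57.7% to 49.9%. Those of all genes were 48.9% and 50.3% after cyclic loess, and 52.3% and 51.8% as deposited. Of the roles described above, Psma3, Psma7, Psmb1, Psmb2, Psmb9, Psmc2, Psmc3, Psmc4, Psmd1, Psmd3, Psmd13, Psmd14, Psmd10 and Psme1 turned negative at P14 relative to P7, and Psmb1, Psmb9, Psmd2 and Psme1 at P14 relative to P2. None of these had been called. Members whose P14 arrays all lay above all P2 arrays numbered 17 on the deposited values, beside 16.2% of all genes and 24.0% of genes above background. Those wholly lower numbered 0, beside 12.6% of all genes. After cyclic loess 11 lay wholly higher, beside 14.5% and 19.6%, and 2 members lay wholly lower, beside 14.7% of all genes. Without P2 replicate 2, 17 lay wholly higher, beside 22.0% and 28.4%, and 4 wholly lower, beside 20.3% of all genes.

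**Figure D4:**
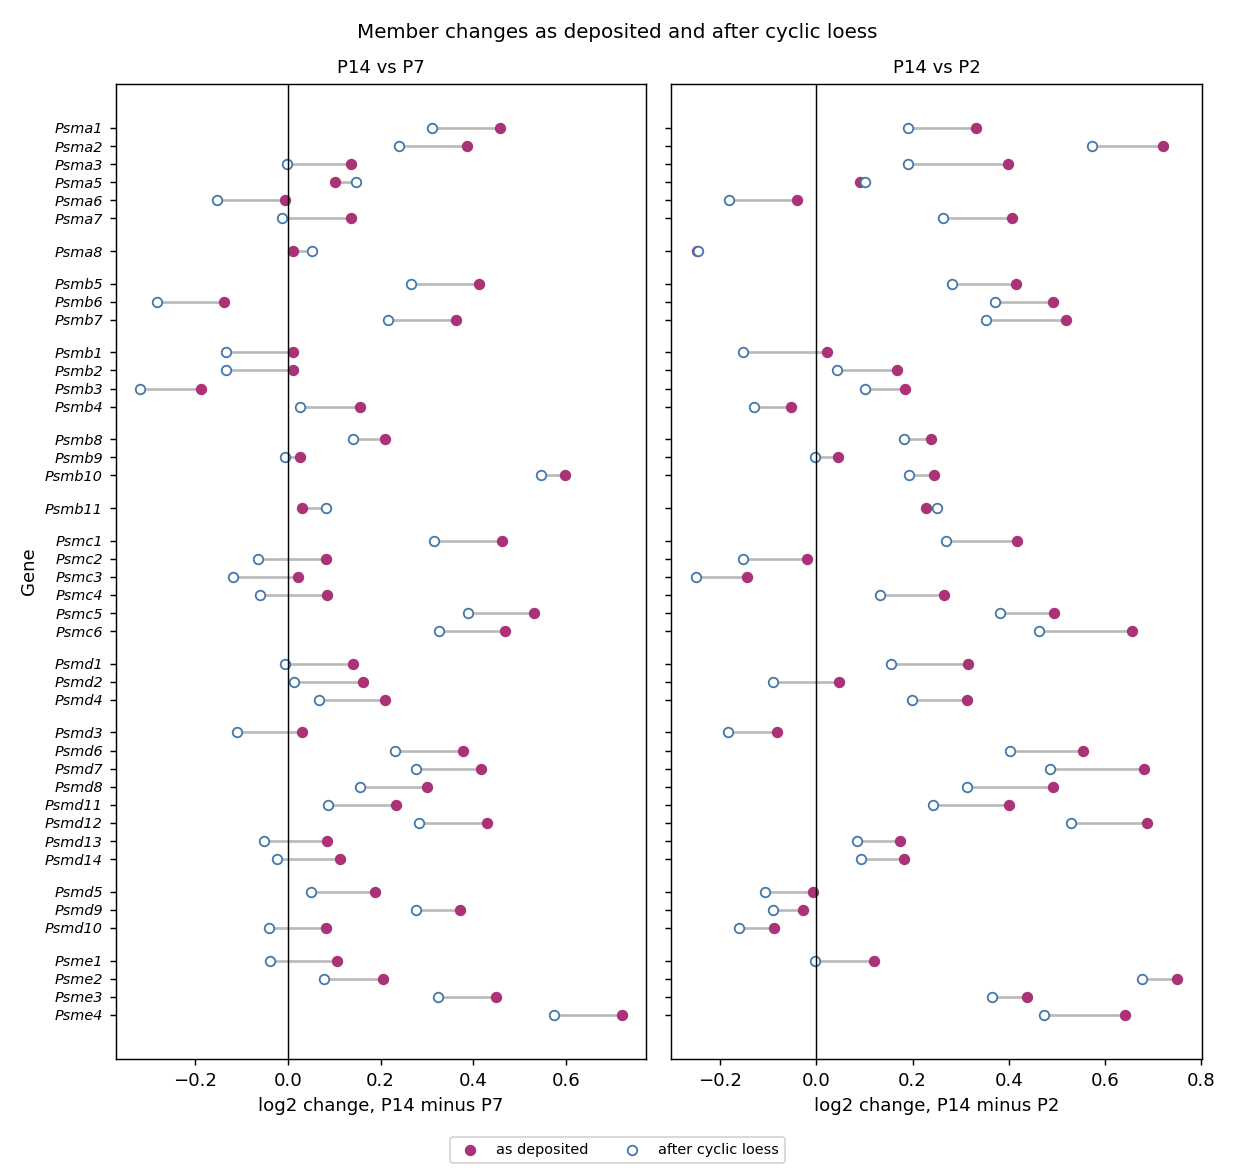
Log2 changes (horizontal axes) of 42 proteasome genes at P14 minus P7 and P14 minus P2, as deposited (filled) and after cyclic loess scaling (open). Nearly every point moves left: the median goes to 0.06 after loess, against 0.16 as deposited, for P14 minus P7, and to 0.19, against 0.25, for P14 minus P2.

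Whether the 2 weeks differed was tested directly, as the P14 minus P7 change less the P7 minus P2 change. Limma called 0 of 42 members (0.194% of all genes in either direction), and at an unadjusted p under 0.05 it gave Psmb10 and Psme4 higher in the second week, beside 4.60% of all genes, and Psmb6 lower, beside 3.52%. The differences were 0.95 for Psmb10 (adjusted p = 0.443), 0.80 for Psme4 (0.515) and -0.77 for Psmb6 (0.586). A test of any change over the 3 ages called 4 members, Psmc6, Psmd12, Psme2 and Psme4, or 9.52% against 8.24% of all genes. When only genes above background in at least 1 age were tested, it called 5 of 39 members, or 12.8%, against 17.2% of those genes.

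The immune subunits were dim at every age, and none was called in any comparison. At an unadjusted p under 0.05 by limma Psmb10 passed at P14 relative to P7, in the test between the weeks and in that over all ages, and Psmb8 and Psmb9 in none. Psmb8, which replaces Psmb5, gave log2 signals of 3.69, 3.96 and 4.05 at P2, 4.02, 4.01 and 3.77 at P7, and 4.35, 4.03 and 4.04 at P14. P14 overlapped P2 and lay just above P7. The change at P14 relative to P2 was 0.24 (95% interval -0.14 to 0.61; limma adjusted p = 0.453).

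Psmb9, which replaces Psmb6, had signals of 3.71, 3.43 and 3.58 at P2, 3.56, 4.02 and 3.21 at P7, and 3.60, 3.63 and 3.63 at P14, close to the background level of 3.43. The ages overlapped throughout. Its change at P14 relative to P2 was 0.04 (95% interval -0.38 to 0.47; limma adjusted p = 0.923).

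Psmb10, which replaces Psmb7, gave 3.71, 3.74 and 4.12 at P2, 3.72, 3.28 and 3.51 at P7, and 3.97, 3.95 and 4.38 at P14. Its P14 arrays lay above its P7 arrays and overlapped P2. The change of 0.60 at P14 relative to P7 (95% interval 0.18 to 1.01) missed the threshold (limma adjusted p = 0.136), and that at P14 relative to P2 was 0.24 (-0.17 to 0.66).

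Their constitutive counterparts were higher in all P14 arrays than in all P2 arrays, without passing the test over all genes. Such separation was seen in 16.2% of all genes and 24.0% of genes above background. Psmb5, the chymotrypsin-like site, gave 6.01, 6.16 and 6.41 at P2, 6.32, 6.13 and 6.14 at P7, and 6.60, 6.75 and 6.48 at P14. P7 lay within the range of P2, and the change at P14 relative to P2 was 0.42 (limma adjusted p = 0.144). Psmb6, the caspase-like site, gave 5.36, 5.73 and 5.97 at P2, 6.51, 6.26 and 6.19 at P7, and 6.03, 6.12 and 6.40 at P14. Both later ages were above P2, and P14 differed from P2 by 0.49 (0.127). Psmb7, the trypsin-like site, gave 6.73, 7.00 and 7.18 at P2, 7.18, 7.19 and 7.01 at P7, and 7.37, 7.73 and 7.36 at P14. Its change of 0.52 at P14 relative to P2 had an adjusted p of 0.0818, which became 0.0478 when only genes above background in at least 1 age were tested, and under cyclic loess the change was 0.35 with an adjusted p of 0.226. Pseudogene copies of Psmb5, Psmb6 and Psmb7 are annotated in RefSeq, and what they add to these probe sets was not tested.

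**Figure D5:**
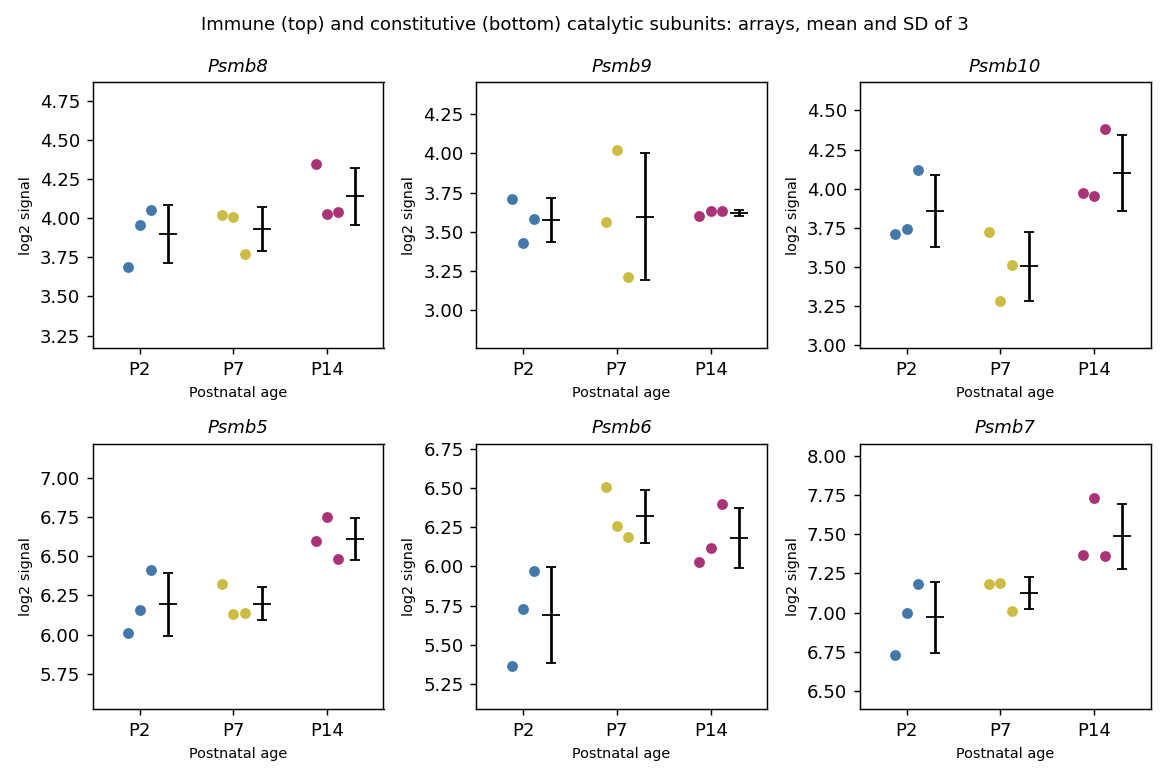
Log2 signal (vertical axes) by postnatal age (horizontal axes) of the immune subunits Psmb8, Psmb9 and Psmb10 above their constitutive counterparts Psmb5, Psmb6 and Psmb7, with points for arrays and bars for the mean and SD of 3. The constitutive genes lie higher at P14 than at P2 without overlap, as do 24.0% of genes above background. The immune genes overlap between these ages and lie close to the background level of 3.43.

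The balance within each catalytic position was tested as the immune minus the constitutive log2 signal in each array, set to 0 at the P2 mean. For Psmb8 minus Psmb5 it was 0.02 ± 0.13 at P7 and -0.18 ± 0.24 at P14 (SD, n = 3 each), with no difference among ages found by an exact permutation test (p = 0.346, adjusted p = 0.346). For Psmb9 minus Psmb6 it was -0.61 ± 0.42 at P7 and -0.45 ± 0.18 at P14 (exact permutation p = 0.161, adjusted p = 0.241). For Psmb10 minus Psmb7 it was -0.51 ± 0.25 at P7 and -0.28 ± 0.40 at P14 (exact permutation p = 0.161, adjusted p = 0.241). All 3 means at P14 were below those at P2, but each 95% interval of the P14 minus P2 difference held 0: -0.51 to 0.15, -1.15 to 0.25 and -0.84 to 0.29. The test ran over all 1680 assignments of arrays to ages, with a smallest possible p of 0.00357, and p was adjusted over the 3 pairs. The immune signals were close to background, so a change in them may show only in part in these differences.

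Factors that build and control the proteasome were described from lists. Pomp, the chaperone that matures the core, was 1.59-fold higher at P14 than at P2 (log2 7.75 ± 0.07 at P14 and 7.08 ± 0.21 at P2, SD, n = 3 each; limma adjusted p = 0.0357), but after cyclic loess the change was 0.50 with an adjusted p of 0.103. It was the only called gene of the 6 core chaperones and inhibitor, whose median change was 0.22. Nfe2l1, the factor that activates proteasome genes, was 1.70-fold higher at P14 than at P2 (6.80 ± 0.09 at P14 and 6.04 ± 0.24 at P2; adjusted p = 0.0168). It was the only called gene of 6 transcription factors and processing enzymes, with a list median of 0.48, and it stayed called after cyclic loess (0.63, adjusted p = 0.0348). The Nfe2l1 call was lost without P2 replicate 1, P14 replicate 1 or P14 replicate 3 (adjusted p 0.0724, 0.0621 and 0.0716). The Pomp call was lost without P2 replicate 1 or 2 or any 1 of the P14 arrays, with adjusted p of 0.0839 to 0.116.

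Of 7 proteasome-bound proteins, such as the deubiquitinases Usp14 and Uchl5, none was called at P14 relative to P2, with a median of 0.35 and 3 higher at an unadjusted p under 0.05 by limma. Of 5 measured ubiquitin-activating and shuttle genes none was called in that comparison, none passed at an unadjusted p under 0.05, and the median was -0.13. Over all genes the median at P14 relative to P2 was 0.01.

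Few genes around the immune proteasome passed the test. Of 9 MHC class I processing genes limma called 0 at P14 relative to P2, with 2 higher and 1 lower at an unadjusted p under 0.05 and a median of -0.13, with 2 of 9 means higher. Erap1, which trims peptides for MHC class I, was called higher at P14 than at P7, by 0.79 (adjusted p = 0.0257). Tap1, the peptide transporter whose gene lies between Psmb9 and Psmb8 on chromosome 17, gave -0.13 at P14 relative to P2 (adjusted p = 0.709). Of 10 measured interferon-signalling genes Ifngr2, a chain of the interferon-gamma receptor, was called higher at P14 than at P2, by 0.76 (adjusted p = 0.0138), and the kinase Jak2 at P14 than at P7, by 0.82 (0.0343). The list's median at P14 relative to P2 was 0.39, with changes from -0.63 to 0.76 and 8 of 10 means higher. Means were higher in 51.8% of all genes and 57.7% of genes above background. At an unadjusted p under 0.05 by limma 4 genes of the list were higher and 1 lower. The Erap1 call was lost when any single P7 or P14 array was left out (adjusted p 0.0646 to 0.116), the Jak2 call without P7 replicate 2 or 3 or any 1 of the P14 arrays (0.0828 to 0.152) and after cyclic loess (0.0844), and the Ifngr2 call without P14 replicate 1 (0.0747).

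Blood and connective tissue cells share the tissue with the fibres. Of 17 leukocyte markers 9 had a mean over the arrays above background, and Cd3e, Cd4, Cd8a, Cd79a, Cd14, H2-Aa, S100a8 and Mpo did not. Their summed linear signal spanned 215 to 413 in P2 arrays, 244 to 328 in P7 arrays and 259 to 298 in P14 arrays. Limma called 0 higher, with 2 at an unadjusted p under 0.05, and 2 lower at P14 than at P2: S100a8, a neutrophil protein (adjusted p = 0.00528), and Itgam, a myeloid integrin (0.0365), with a list median of -0.14. S100a8 had means of 2.07 at P14 and 4.29 at P2, and Itgam 3.31 at P14 and 4.17 at P2. Their P14 means were below the background level, so no fold is given. The Itgam call was lost without P2 replicate 1 or any 1 of the P14 arrays (0.0572 to 0.139). Of 7 fibroblast markers, with a median of -0.26, Pdgfra alone was called (log2 change -0.63, limma adjusted p = 0.0496), a call lost without any 1 array other than P2 replicate 3 (0.0619 to 0.182). Among 8 endothelial markers 0 were called, with 4 higher at an unadjusted p under 0.05 by limma and a median of 0.39, and their summed signal spanned 490 to 780 in P2 arrays, 656 to 857 in P7 arrays and 793 to 876 in P14 arrays. In whole muscle, fewer cells of a type and less RNA per cell cannot be told apart, and the part of other cell types in the members' changes was not tested.

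The members varied most at P2, while limma used a spread for each gene that was shared by all ages. Their median SD between replicates was 0.25 among P2, 0.15 among P7 and 0.13 among P14 arrays, against 0.25, 0.19 and 0.15 among genes above background. The per-array medians of the 17 regulatory-particle genes placed P2 replicate 2 lowest, at -0.38, with the other P2 arrays at -0.08 and 0.08.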

How the data were processed

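Signals were analysed for 9 arrays, 3 at each of P2, P7 and P14. The deposited table holds log2 values made by the authors with RMA, and Partek is also named, per the submitters' processing notes; the log2 base follows from RMA, and the array type, like the genome build, was not given in the sources used here. No scanner files were used. Of 41345 probe sets, 23521 had a single symbol in the platform annotation, 1814 had several and 16010 had none listed. Symbols were updated through Entrez numbers for 23328 of them. The brightest probe set of each gene by its 9-array mean was kept, giving 22180 genes. Members, lists and tests were chosen with earlier results of these data known.

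Limma 3.58.1 in R 4.3.3 was fitted to all genes and arrays with age as the factor, with Benjamini-Hochberg adjustment over all genes within each comparison and calls at an adjusted p under 0.05. Immune and constitutive subunits were compared by exact permutation. The fit was tested on simulated data. Values per array are given for immune, constitutive catalytic and called members, and other members by change, range or count; up to 4 called genes are named per list and comparison. Tap1, Usp14 and Uchl5, and the array values of Psmd7, were chosen after values were seen. The alternatives were median centring, cyclic loess, a filter on dim genes, the dimmest probe set per gene, a variance trend, only the arrays compared, the replicate number as a block and leaving out each array. Counts of higher means and separate groups under other scalings, and without P2 replicate 2, were added after seeing the data. Promoters came from RefSeq on GRCm38.p6, with 38 entries for 35 members.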

Additional observations from a re-analysis of the deposited data

How the results depend on the processing

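No called result reversed its direction under any alternative run, and besides the uncalled members named above, Psmb1 and Psme3 changed sign under cyclic loess at P7 relative to P2, at -0.02 and 0.04 after it. The small number of arrays limits the precision, and Psmb8, Psmb9 and Psmb10 lie close to background. At P14 relative to P2, where 5 members were called higher, cyclic loess gave 3 (5.48% of all genes), the test on genes above background in at least 1 age gave 8 (13.6%) and the trended, robust variance gave 8 (7.31%); leaving out each array gave 0 to 6 (3.77% to 7.52%). At P14 relative to P7, where 1 was called higher, cyclic loess, the dimmest probe set and the replicate block each gave 0 (240, 332 and 316 of 22180 genes), and leaving out each array gave 0 to 1 (0.568% to 2.50%). The test of any change over the ages, with 4 members, gave 1 under cyclic loess (8.19% of all genes) and 0 to 4 with each array left out (3.81% to 9.64%). A pair of counts added after seeing the data moved under cyclic loess. Members with a higher mean at P14 than at P7 numbered 25 (48.7% of genes above background), against 39 (62.1%) as deposited. Members with groups apart and higher at P14 relative to P2 numbered 11 (19.6% of genes above background), against 17 (24.0%). The cause was not tested.

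The replicate numbers did not pair the arrays: deviations of same-numbered arrays correlated at -0.04 to 0.07. With the replicate block the test of any change called 1 member (7.37% of all genes), and 5 members were called higher at P14 relative to P2. The Psmb8, Psmb9 and Psmb10 balances had block-permutation adjusted p of 0.472, 0.292 and 0.250, and in no alternative run did any pass; their lowest adjusted p with an array left out was 0.0643, for Psmb9 minus Psmb6 without P7 replicate 2. Median centring changed no call among the named genes. At P7 relative to P2 it gave 21 of 42 higher means (45.5% of all genes), against 25 (49.2%) as deposited. There Psmb1, Psmb5, Psmb9 and Psme1, none called, turned negative, at -0.02 to -0.01, and Psma6 turned positive at P14 relative to P7, at 0.03. A fit on only the arrays of 2 ages has no value for the difference between the weeks or for any change over the 3 ages. It called 4 members higher at P14 relative to P2 (5.86% of all genes), without Psme4. At P14 relative to P7 it called 1 higher (3.37% of all genes).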

Other observations

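Psma4, the remaining constitutive alpha subunit, was measured only by probe sets that also list the symbol AY074887, and so was not a member. The brighter gave log2 signals of 6.78, 6.94 and 7.22 at P2, 7.10, 7.63 and 7.31 at P7, and 7.47, 7.48 and 7.25 at P14. All P14 arrays lay above all P2 arrays, and the change of 0.42 was not called (limma adjusted p = 0.192).

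Psmc2 had a second probe set, with log2 signals of 3.70 to 4.99 and a change of -0.26 at P14 relative to P2, beside -0.02 for the brighter one, neither called (limma adjusted p = 0.633 and 0.967). Member promoters had a median G and C content of 57.4%, against 52.4% over all promoters.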
